A study of Mus musculus with 186 samples.

Results

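The 34 genes described here are genes that astrocytes of the mouse brain are known to express. They were taken by name from a list and looked up in a table of 28338 gene symbols, and all 34 were found and passed the filter on low counts in every comparison below. They were read in 186 bulk RNA libraries from the brains of mice with 0, 1 or 2 mutant copies of Akap11, which encodes an anchoring protein for protein kinase A. The genotypes were wild type (WT), heterozygous (Akap11 +/-) and homozygous mutant (Akap11 -/-), the ages 4 and 12 weeks, and the regions striatum, hippocampus, thalamus, substantia nigra and the prefrontal and somatosensory parts of the cortex. This gave 36 groups, 30 with 5 libraries and 6 with 6. Strain and sex are not given in the labels used here, the mutant allele is named only by its genotype, and nothing in the labels says that each library came from a separate animal, so the p-values measure the spread between libraries.

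Astrocytes are glial cells that clear glutamate from around synapses, turn it into glutamine, carry water and potassium towards blood vessels and supply neurons with energy substrates. They form a coupled network through gap junctions, and those of different brain regions are known to differ in the genes they use. Each library came from a dissected piece of tissue with all its cell types, so fewer astrocytes and less RNA per astrocyte cannot be told apart anywhere in these data.

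Levels are given as CPM, counts scaled to a fixed library size so that libraries of unequal depth can be compared, differences between groups as log2 differences ± standard error (SE), and a gene was called when its p-value, adjusted over all genes tested by the Benjamini-Hochberg method in edgeR's quasi-likelihood test, was below 0.05. Akap11, read first to check the labels, was at 176 to 436 CPM in WT libraries, 90.9 to 222 CPM in Akap11 +/- and 11.7 to 24.5 CPM in Akap11 -/- libraries, apart from the library labelled substantia nigra WT 92 at 4 weeks, which had 44.8 CPM. Library totals ran from 20794652 to 73344445 counts. At 4 weeks 11 libraries stood apart from their group in markers of regional neurons: striatum WT 92 and Akap11 -/- 51, 161 and 163 carried cortical markers, thalamus WT 913, 914 and 23 had the lowest thalamic markers, and substantia nigra WT 42 and 92 and Akap11 -/- 44 and 91 had the lowest markers of dopamine neurons. In 16 libraries of 4 weeks under 10% of the values above 0 were whole numbers. Values without these libraries are given below where they change a result.

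Per kilobase of each gene's longest annotated transcript, a choice of length on which the order of the genes depends, Apoe, which encodes the lipid carrier apolipoprotein E, had the highest level of the 34, with a mean over the 12 WT groups of 692 CPM per kilobase. It was followed by Glul (glutamine synthetase) at 478, Clu (clusterin, a secreted chaperone) at 342 and Ndrg2 at 337 CPM per kilobase. The lowest were Cbs (cystathionine beta-synthase) at 3.32 and the transcription regulators Hes1 at 3.82, Sox9 at 4.78 and Hes5 at 5.46 CPM per kilobase. The highest WT group exceeded the lowest 1.58-fold for Clu and 1.68-fold for Glul, the smallest ratios of the 34, 2.24-fold for Apoe and 4.81-fold for Ndrg2, and among the genes of low level 1.79-fold for Cbs and 1.95-fold for Sox9. Agt (angiotensinogen) differed 123-fold between its highest and lowest WT group, Gfap 19.0-fold, Itih3 17.9-fold and Id4 11.6-fold. The highest group of Apoe and of Agt was substantia nigra at 4 weeks, where WT 92, the library with low Akap11, held 3743 and 424 CPM. The others of that group held 869 to 1524 CPM of Apoe and 99.4 to 202 CPM of Agt. Among the 12-week groups alone the highest region exceeded the lowest 1.84-fold for Apoe and 115-fold for Agt.

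Libraries of one group also differed in these genes. The SD of log2(CPM + 1) within groups had a median of 0.23 over the 34 genes, beside 0.18 over 13850 genes with a mean log2 level of at least 1. Gfap, the intermediate filament protein used to stain astrocytes, had the widest spread at 0.82, followed by Agt at 0.47, Hes5 at 0.45 and Aqp4 at 0.36. Ttyh1, which encodes a chloride channel family protein, had the narrowest at 0.15. The SD over the 12 WT group means had a median of 0.54 over the 34 genes and 0.31 over all 13850, so in both sets the median between groups was above that within groups. Over the 34 genes the ratio of the SD between groups to that within groups ran from 1.00 for Clu and Sox9 to 5.04 for Agt.

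The first comparison asked how the genes differ between regions in WT mice, each region being set against the mean of the other 5. At both ages more of the genes were called higher than lower in thalamus and substantia nigra, and more were called lower than higher in prefrontal cortex and striatum. In the substantia nigra at 4 weeks 23 of the 34 were called higher and 4 lower, where 31.4% of all genes tested were called higher and 27.5% lower. At 12 weeks it was 26 higher and 4 lower, against 35.7% and 32.1% of all genes. In the thalamus 16 were called higher and 5 lower at 4 weeks (25.9% and 22.2% of all genes) and 27 higher and 2 lower at 12 weeks (34.1% and 32.7% of all genes). The median log2 difference of the 34 was 0.51 and 0.53 in substantia nigra and 0.29 and 0.63 in thalamus at 4 and 12 weeks, while the medians of all genes were between -0.01 and 0.02.

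In the prefrontal cortex 24 of the 34 were called lower and 2 higher at 4 weeks (21.3% and 21.7% of all genes) and 25 lower and 4 higher at 12 weeks (27.8% and 29.2% of all genes). In the striatum 13 were lower and 7 higher at 4 weeks (26.1% and 26.8% of all genes) and 26 lower and 4 higher at 12 weeks (34.7% and 32.5% of all genes). Their medians were -0.72 and -0.43 in prefrontal cortex and -0.23 and -0.52 in striatum, at 4 and 12 weeks, again beside medians of all genes near 0, at -0.03 to 0.00. In the somatosensory cortex 8 were higher and 4 lower at 4 weeks (19.4% and 19% of all genes) and 4 higher and 15 lower at 12 weeks (28.7% and 27.7% of all genes). In the hippocampus 8 were higher and 6 lower at 4 weeks (19.7% and 16.7% of all genes) and 8 higher and 15 lower at 12 weeks (27.8% and 26.7% of all genes). The 14 called in the hippocampus at 4 weeks became 9 when the WT libraries numbered 913, or those numbered 142, were left out.

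**Figure D1:**
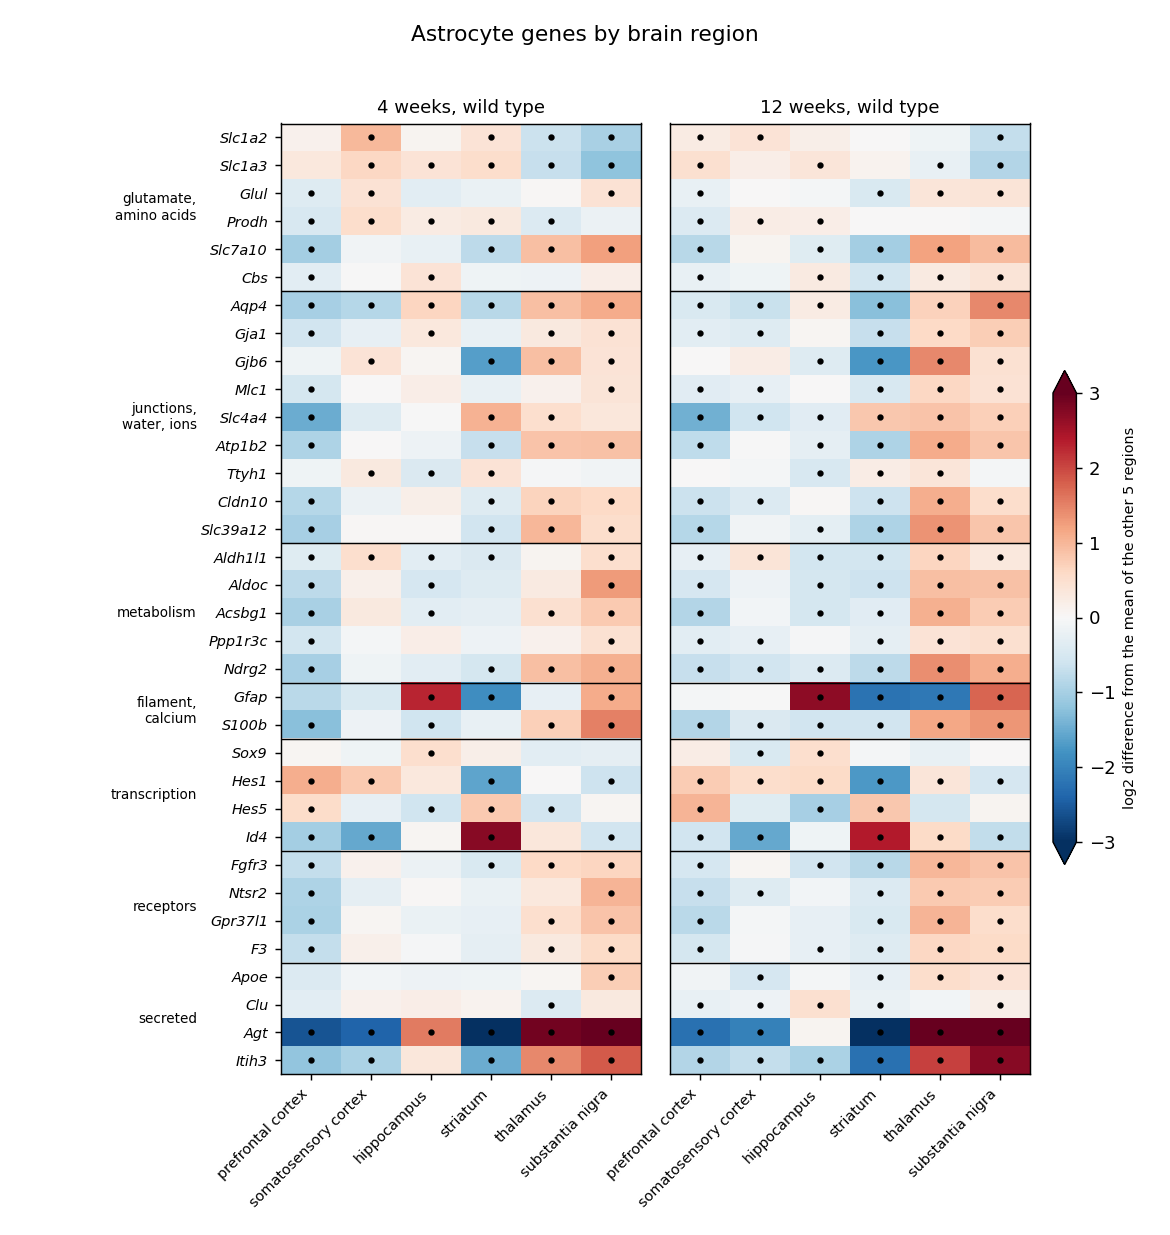
Log2 difference of each of the 34 genes (rows, grouped by role) in WT libraries between one region (columns) and the mean of the other 5, at 4 weeks (left) and 12 weeks (right); dots mark called differences. Most rows are blue in prefrontal cortex and striatum and red in thalamus and substantia nigra, while Slc1a2 and Slc1a3 are blue in substantia nigra, Id4 is darkest red in striatum and Gfap in hippocampus.

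Every WT library of thalamus and substantia nigra lay above every WT library of both cortical regions and the striatum for 5 of the 34 genes at 4 weeks (Agt, Atp1b2, Cldn10, Itih3 and Slc7a10), where 3.72% of all genes did so. For Aqp4, Gja1 and Slc39a12 only substantia nigra WT 92, the library with low Akap11, broke this order at 4 weeks, at 47.7, 111 and 22.1 CPM. All other libraries of thalamus and substantia nigra held at least 164, 200 and 55.8 CPM. Those of both cortical regions and striatum held at most 106, 180 and 55.7 CPM. The share of all genes without that library is not given. At 12 weeks the order held for 19 of the 34, beside 8.1% of all genes. The reverse order was seen for Slc1a3 alone of the 34 at 4 weeks (4.3% of all genes) and for 0 at 12 weeks (6.64% of all genes). Of 10 oligodendrocyte markers, all 10 were called higher in thalamus and in substantia nigra at both ages, with median log2 differences from 1.30 to 2.29, and all 10 lower in both cortical regions. All 10 were also called higher in striatum, where more of the astrocyte genes were called lower than higher, with medians of 0.93 at 4 weeks and 0.68 at 12 weeks. The part of tissue composition in the order of the regions was not tested.

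The glutamate transporters did not follow the majority. Slc1a2 encodes GLT-1, which removes most of the glutamate released at forebrain synapses. In the somatosensory cortex at 4 weeks its levels were 3611, 3738, 4223, 5215 and 6567 CPM, and in the 6 substantia nigra libraries they ran from 647 to 2761 CPM with a mean of 1563. The somatosensory libraries were all above those of the substantia nigra, of which WT 92 was the lowest and the next held 1308 CPM. Slc1a2 was 0.98 ± 0.17 above the other regions in somatosensory cortex on the log2 scale (edgeR adjusted p = 1.9e-05), and its log2 difference in substantia nigra was -0.97 ± 0.18 (edgeR adjusted p = 3.56e-05). Slc1a3, which encodes the transporter GLAST, was lower in substantia nigra by log2 differences of -1.21 ± 0.14 at 4 weeks and -0.88 ± 0.11 at 12 weeks (edgeR adjusted p = 1.18e-08 and 1.81e-08).

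The other genes of amino acid handling differed among themselves. Slc7a10, which encodes a carrier of serine and glycine, was at 59.2 to 134 CPM in substantia nigra (WT 92 the highest, the next at 95.7 CPM) and 52.2 to 73.3 CPM in thalamus at 4 weeks, above all libraries of prefrontal cortex (17.0 to 23.7 CPM) and striatum (20.9 to 28.1 CPM). Its log2 difference was 1.23 ± 0.11 in substantia nigra and -1.01 ± 0.15 in prefrontal cortex (edgeR adjusted p = 2.02e-10 and 1.05e-06). Prodh, the first enzyme of proline breakdown, had a 1.78-fold range over the 12 WT group means, but at 4 weeks it was called lower in thalamus (-0.41 ± 0.10) and higher in striatum (0.29 ± 0.10), against the direction of most called genes there (edgeR adjusted p = 0.000966 and 0.0139). It was also higher in somatosensory cortex and hippocampus and lower in prefrontal cortex at both ages.

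Among genes of junctions, water and ions, Gjb6 and Slc4a4 took opposite places in the striatum. Gjb6 encodes connexin 30, a gap junction subunit of astrocytes. Striatal libraries held 10.5, 11.6, 13.5, 14.6 and 15.9 CPM of Gjb6 at 4 weeks and 12.0, 12.3, 14.1, 18.0 and 21.0 CPM at 12 weeks, while thalamic libraries held 51.8 to 62.6 and 83.3 to 130 CPM. All striatal libraries were below all libraries of the other regions at the same age, the nearest being hippocampal ones at 19.9 and 23.1 CPM. The log2 difference in striatum was -1.66 ± 0.17 and -1.74 ± 0.15 (edgeR adjusted p = 1.1e-09 and 1.18e-11). Gja1, which encodes connexin 43, the other main astrocyte connexin, differed 2.31-fold between its highest and lowest WT group, against 7.40-fold for Gjb6.

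Slc4a4 encodes the sodium bicarbonate cotransporter NBCe1. Its levels in striatum were 323, 348, 360, 382 and 454 CPM at 4 weeks, and those in prefrontal cortex 79.8, 84.0, 86.6, 90.1 and 99.5 CPM, with no overlap. It was higher in striatum by 1.05 ± 0.16 at 4 weeks and 0.81 ± 0.09 at 12 weeks, and lower in prefrontal cortex by log2 differences of -1.49 ± 0.20 and -1.44 ± 0.10 (edgeR adjusted p = 2.1e-06, 2.18e-09, 2.69e-07 and 9e-13). Aqp4, the water channel aquaporin 4 of astrocyte endfeet, was at 242 to 440 CPM in 5 of the 6 substantia nigra libraries at 4 weeks and at 47.7 CPM in WT 92, the library with low Akap11. Slc4a4 was likewise at 69.8 CPM in that library and at 244 to 424 CPM in the other 5.

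The genes grouped under metabolism, Aldoc, Acsbg1, Aldh1l1, Ndrg2 and Ppp1r3c, were all 5 called higher in substantia nigra and all 5 lower in prefrontal cortex at both ages. Aldoc, the brain isoform of the glycolytic enzyme aldolase, was at 992 to 3163 CPM in substantia nigra and 378 to 570 CPM in prefrontal cortex at 4 weeks, with no overlap. The highest value was again that of WT 92, and the next was 1898 CPM. S100b, a calcium-binding protein that maturing oligodendrocytes also express, was higher in substantia nigra by 1.52 ± 0.14 at 4 weeks and 1.32 ± 0.11 at 12 weeks (edgeR adjusted p = 2.72e-10 and 8e-12). Of the receptors, Fgfr3, Ntsr2, Gpr37l1 and F3 were all 4 higher in substantia nigra and all 4 lower in prefrontal cortex at both ages. Fgfr3 is a fibroblast growth factor receptor, Ntsr2 binds neurotensin, and F3 encodes tissue factor.

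Gfap had a regional order of its own. The hippocampus held 291 to 460 CPM at 4 weeks and 273, 301, 309, 310 and 399 CPM at 12 weeks, above every striatal library, which ran from 13.2 to 46.8 and from 13.4 to 26.1 CPM. Its log2 difference in hippocampus was 2.28 ± 0.30 at 4 weeks and 2.68 ± 0.24 at 12 weeks (edgeR adjusted p = 4.24e-07 and 9.17e-11), and in striatum -1.87 ± 0.43 and -2.22 ± 0.34 (edgeR adjusted p = 0.000481 and 1.52e-06). In the thalamus at 4 weeks the libraries ran from 16.8 to 224 CPM, and the log2 difference was not called (-0.24 ± 0.35, edgeR adjusted p = 0.599). Without the libraries that stood apart, WT 913 with 224 CPM among them, Gfap in thalamus was lower, at a log2 difference of -1.44 (edgeR adjusted p = 0.0034).

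**Figure D2:**
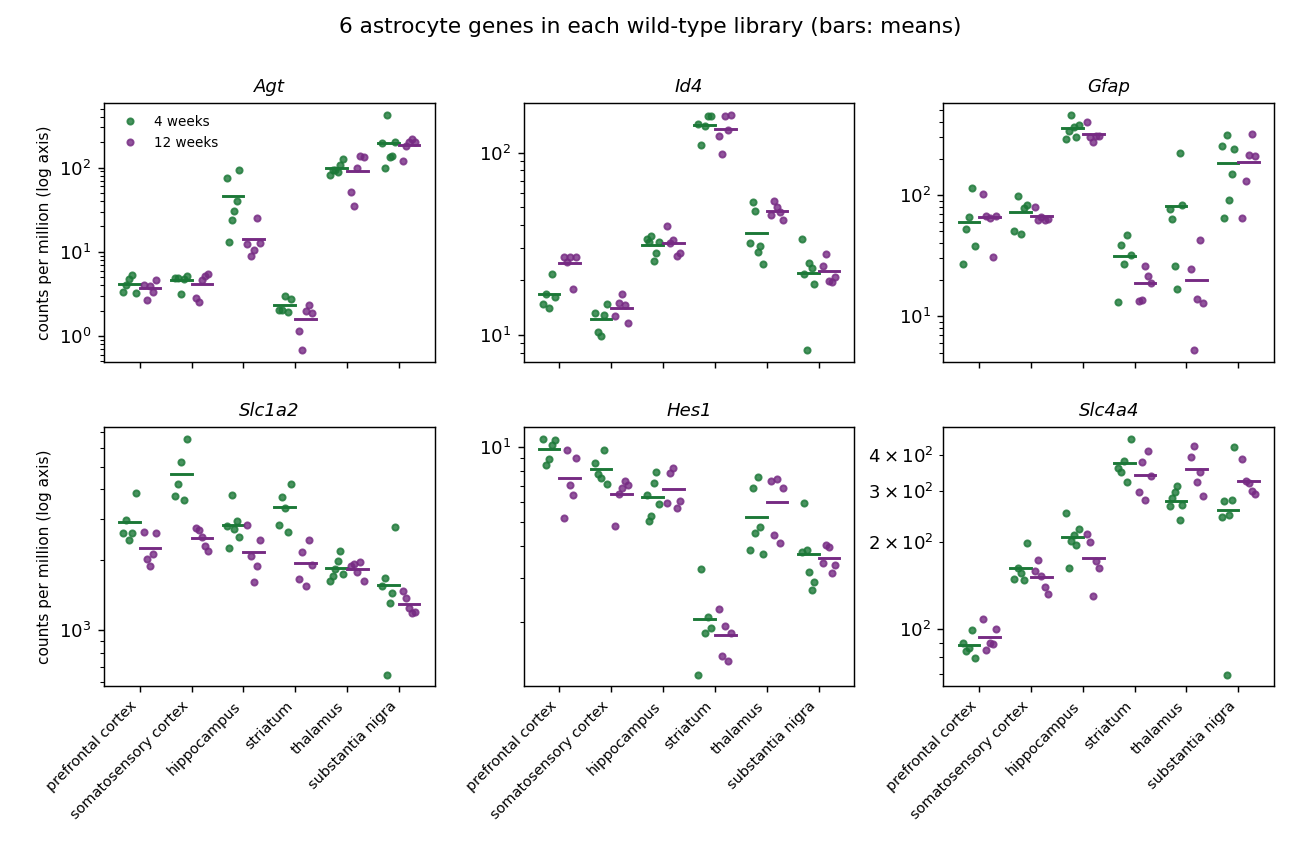
Level in CPM, on a log axis, of 6 genes in each WT library by region (points), with the group mean as a bar, at 4 weeks (green) and 12 weeks (purple). Agt runs from 1.92 to 2.98 CPM in striatum and from 99.4 to 424 CPM in substantia nigra at 4 weeks, Id4 is highest in striatum, Gfap in hippocampus, Slc1a2 in somatosensory cortex at 4 weeks, and Hes1 is lowest in striatum.

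Of the secreted proteins Clu and Apoe were among the more even genes, while Agt had the widest regional range of the 34. Agt encodes the precursor of angiotensin peptides, made in the brain mainly by astrocytes. Striatal libraries held 1.92, 2.06, 2.06, 2.74 and 2.98 CPM at 4 weeks, and the 6 of the substantia nigra 99.4 to 424 CPM, with thalamus at 80.9 to 125 CPM. The 424 CPM belong to WT 92, the library with low Akap11, and the next highest was 202 CPM. Neither cortical region exceeded 5.37 CPM at 4 weeks. The log2 differences were 4.06 ± 0.21 in substantia nigra, 2.90 ± 0.22 in thalamus and -3.53 ± 0.36 in striatum (edgeR adjusted p = 3.37e-15, 5.42e-12 and 1.27e-09), with 3.82 in substantia nigra without the libraries standing apart, and at 12 weeks 4.54 ± 0.20, 3.31 ± 0.20 and -3.66 ± 0.36. Itih3, an inter-alpha-trypsin inhibitor heavy chain of the extracellular matrix, took the same order at 12 weeks at its ends, from -2.24 ± 0.23 in striatum to 2.74 ± 0.16 in substantia nigra (edgeR adjusted p = 1e-09 and 2.46e-15).

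The 4 transcription regulators did not move together. Id4, an inhibitor of basic helix-loop-helix factors, was at 110, 139, 144, 158 and 159 CPM in striatum at 4 weeks and 98.3, 123, 134, 159 and 161 CPM at 12 weeks. No library of another region reached these levels: the highest was 53.8 CPM at 4 weeks and 54.3 CPM at 12 weeks, both in thalamus. The log2 difference in striatum was 2.73 ± 0.15 and 2.39 ± 0.09 (edgeR adjusted p = 4.59e-16 and 3.59e-20). Id4 is known to be expressed by some neurons as well, and markers of striatal projection neurons were higher in the same comparison for 10 of 10 genes, with medians of 6.40 and 6.50; their part was not tested.

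Hes1, an effector of Notch signalling, was lowest where Id4 was highest. Its striatal levels were 1.23, 1.80, 1.89, 2.09 and 3.26 CPM at 4 weeks and 1.39, 1.46, 1.81, 1.92 and 2.24 CPM at 12 weeks, against 8.44 to 10.7 CPM in prefrontal cortex at 4 weeks. At 12 weeks all striatal libraries were below all others, and at 4 weeks WT 92 of the striatum, at 3.26 CPM, overlapped with the substantia nigra. The log2 differences in striatum were -1.58 ± 0.19 and -1.72 ± 0.17, and in prefrontal cortex 1.08 ± 0.16 and 0.75 ± 0.13 (edgeR adjusted p = 4.27e-08, 2.51e-10, 1.08e-06 and 1.51e-05). Hes5, its relative in the same pathway, was instead higher in striatum at 4 weeks, by 0.80 ± 0.20 (edgeR adjusted p = 0.00144). At 12 weeks the difference was again 0.80 ± 0.33 (edgeR adjusted p = 0.0322), but the call was lost without the libraries numbered 1, 3 or 4. Sox9, needed for the making of glial cells, stayed within 1.95-fold over the WT groups.

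Because Agt and Gjb6 were low and Id4 and Hes5 high in the striatum, the 250 bases before the start of each are shown, from RefSeq with the build GRCm38.p6. Of the 34 genes 29 had a promoter in that set. Capitals mark matches on either strand to TTGGC, part of the site of nuclear factor I, a family known for its role in gliogenesis, to TGGGAA, the core bound by the Notch partner RBPJ, and to CACNAG, the N-box bound by Hes proteins. Genes and motifs were chosen after the levels were seen.
Agt, minus strand, chr8:124569707-124569956: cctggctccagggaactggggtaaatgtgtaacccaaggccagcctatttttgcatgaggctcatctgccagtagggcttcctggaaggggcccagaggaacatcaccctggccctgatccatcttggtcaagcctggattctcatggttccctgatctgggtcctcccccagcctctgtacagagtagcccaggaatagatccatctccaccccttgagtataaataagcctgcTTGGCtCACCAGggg
Gjb6, minus strand, chr14:57133612-57133861: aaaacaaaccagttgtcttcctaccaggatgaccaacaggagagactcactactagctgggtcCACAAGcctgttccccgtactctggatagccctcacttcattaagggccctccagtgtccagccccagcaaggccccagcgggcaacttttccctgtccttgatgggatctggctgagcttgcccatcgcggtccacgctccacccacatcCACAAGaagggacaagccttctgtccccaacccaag
Id4, plus strand, chr13:48260866-48261115: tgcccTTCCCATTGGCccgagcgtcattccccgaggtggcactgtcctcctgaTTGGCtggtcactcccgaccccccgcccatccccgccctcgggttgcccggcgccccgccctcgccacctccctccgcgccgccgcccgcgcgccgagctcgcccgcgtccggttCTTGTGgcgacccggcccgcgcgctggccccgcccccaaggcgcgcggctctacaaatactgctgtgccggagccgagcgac
Hes5, plus strand, chr4:154960673-154960922: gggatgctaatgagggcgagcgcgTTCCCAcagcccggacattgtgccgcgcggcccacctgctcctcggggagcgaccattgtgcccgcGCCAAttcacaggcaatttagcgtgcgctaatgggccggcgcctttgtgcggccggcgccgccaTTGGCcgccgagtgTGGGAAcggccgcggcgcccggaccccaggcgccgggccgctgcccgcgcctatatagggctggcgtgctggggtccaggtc
The Hes5 window held 2 matches to TTGGC and 2 to TGGGAA, and that of Id4 2 and 1, of which 1 pair adjoin each other at its 5′ end. Neither Agt nor Gjb6 held TGGGAA, and Gjb6 held 2 matches to CACNAG. Agt held 1 match to TTGGC and 1 to CACNAG, and Id4 also held 1 to CACNAG. Over all 29 genes 15 held TTGGC, 10 TGGGAA and 13 CACNAG, where 41.9%, 21.5% and 36.7% of 27025 promoters of the same length did. A match describes letters and no binding was measured. The windows of Id4 and Hes5 are also rich in G and C, at 75.6% and 71.6%, against a median of 52.0% over all promoters.

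The second comparison set 12 against 4 weeks in WT mice. The libraries of the 2 ages carry different sample numbers, so age and the handling of each age's libraries cannot be told apart. In the thalamus 16 of the 34 genes were called higher and 1 lower at 12 weeks, where 7.48% and 6.84% of all genes were. In the prefrontal cortex 6 were higher and 0 lower (6.01% and 7.79% of all genes). In the other 3 forebrain regions most called members were lower: 6 of 7 in somatosensory cortex (12.2% of all genes lower, 10.6% higher), 6 of 7 in hippocampus (7.1% lower, 5.75% higher) and 6 of 8 in striatum (7.38% lower, 6.18% higher). The substantia nigra had 1 higher and 0 lower (1.88% and 2.36% of all genes), which became 14 higher and 1 lower without the libraries with few whole values, and 6 higher and 6 lower with all genotypes in the fit. The medians of the 34 were 0.35 in thalamus, 0.14 in prefrontal cortex, 0.05 in substantia nigra, -0.14 in hippocampus, -0.16 in somatosensory cortex and -0.19 in striatum, and those of all genes lay between -0.01 and 0.02.

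**Figure D3:**
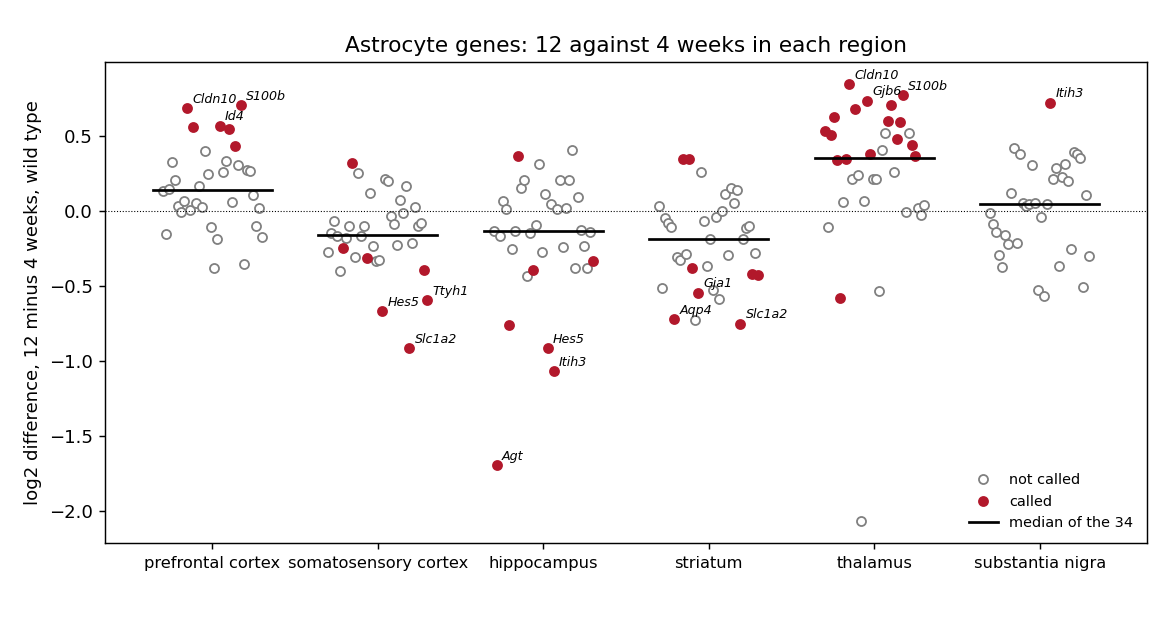
Log2 difference between 12 and 4 weeks in WT libraries of each region for the 34 genes (points; red when called), with their median as a bar. In thalamus most points lie above 0, and in somatosensory cortex, hippocampus and striatum most called points lie below it.

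Aqp4 was lower at 12 weeks in 4 regions, with hippocampal, striatal, thalamic and somatosensory log2 differences of -0.76 ± 0.10, -0.72 ± 0.09, -0.58 ± 0.12 and -0.25 ± 0.08 (edgeR adjusted p = 0.0010, 0.0003, 0.0102 and 0.0437). Hippocampal libraries held 184 to 218 CPM at 4 weeks and 98.7, 100, 109, 127 and 148 CPM at 12 weeks, and striatal libraries 70.8 to 90.3 and 42.6 to 59.5 CPM. The ages did not overlap in either region. Slc1a2 was lower in somatosensory cortex (-0.91 ± 0.19) and striatum (-0.75 ± 0.17), and Gja1 in striatum (-0.55 ± 0.10) (edgeR adjusted p = 0.0042, 0.0118 and 0.0037). Ttyh1 was lower in somatosensory cortex by -0.60 ± 0.13 (edgeR adjusted p = 0.0053). Both Gja1 and Ttyh1 were called lower in each of somatosensory cortex, hippocampus and striatum.

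Cldn10, a claudin, was the gene called higher most often, in all regions but the substantia nigra, with its largest differences in thalamus (0.84 ± 0.15) and prefrontal cortex (0.69 ± 0.12) (edgeR adjusted p = 0.0047 and 0.0037). S100b was higher by 0.77 ± 0.18 in thalamus and 0.70 ± 0.11 in prefrontal cortex, and Gjb6 by 0.73 ± 0.10 in thalamus (edgeR adjusted p = 0.0165, 0.0017 and 0.0015). Thalamic Gjb6 was at 51.8 to 62.6 CPM at 4 weeks and 83.3 to 130 CPM at 12 weeks, with no overlap. Id4 was higher in prefrontal cortex by 0.57 ± 0.13 (edgeR adjusted p = 0.0126). Oligodendrocyte markers had lower medians at 12 weeks in all 6 regions, from -1.50 in substantia nigra to -0.69 in prefrontal cortex, and in striatum the 3 cortical markers tested, which WT 92 carried at 4 weeks, had a median of -5.37. Their part in the age differences was not tested.

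Several calls between ages rested on few libraries. In the hippocampus Agt (-1.70 ± 0.47, edgeR adjusted p = 0.0342) lost its call without 4-week WT 914 or 23 or 12-week WT 1, 2, 3 or 5, with adjusted p-values up to 0.080. Itih3 in the hippocampus (-1.07 ± 0.32, edgeR adjusted p = 0.0449) lost it without 4-week WT 913, 914 or 23 or any of the 12-week libraries, and Hes5 there (-0.92 ± 0.25, edgeR adjusted p = 0.0324) without 4-week WT 142 or 42 or 12-week WT 1 or 4. The count in the hippocampus fell from 7 to 3 or 4 without 4-week WT 23 or any single 12-week library. In the somatosensory cortex it fell from 7 to 3 or 4 without 4-week WT 913, 92 or 142 or 12-week WT 1 or 5, and in the striatum from 8 to 5 without 4-week WT 92 or 142 or 12-week WT 1, 2 or 4. Cldn10 lost its call in hippocampus without any 1 of 9 of the 11 libraries, in somatosensory cortex without 4-week WT 913, 23, 92 or 142 or 12-week WT 1, 2 or 3, and in striatum without 4-week WT 92 or 12-week WT 1, 2 or 4. F3 in striatum (0.34 ± 0.10, edgeR adjusted p = 0.0445) lost it without 4-week WT 913, 42, 92 or 142 or 12-week WT 1, 2 or 4, and Hes5 in somatosensory cortex (-0.67 ± 0.22, edgeR adjusted p = 0.0414) without 4-week WT 913, 914, 92 or 142 or 12-week WT 1, 2, 4 or 5. In the prefrontal cortex the count rose from 6 to 10 without 4-week WT 913. The single call in the substantia nigra, Itih3 (0.72 ± 0.17, edgeR adjusted p = 0.0379), was lost without 4-week WT 913, 23 or 142 or 12-week WT 2, 3, 4 or 5, and 4 genes were called without 4-week WT 92.

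The third comparison set Akap11 -/- against WT in each region and age. Of the 34 genes 1 was called in the striatum at 4 weeks and 1 in the prefrontal cortex at 4 weeks, and 0 in the other 10 sets. In the striatum at 4 weeks 1.75% of all genes were called lower and 1.59% higher, and in the prefrontal cortex 0.0125% lower and 0% higher. At 12 weeks the striatum had 0 of the 34 called, beside 2.6% of all genes lower and 1.82% higher, and DESeq2 called 0 of the 34. An unadjusted p below 0.05 was held there by 2 of the 34 and by 2485 of all 15622 genes. In the other 9 sets 0 of the 34 were called, where the share of all genes called in either direction at 4 weeks was 0.0564% for somatosensory cortex, 0.00617% for substantia nigra, 0.0128% for thalamus and 0.00609% for hippocampus. At 12 weeks it was 0.0364% for substantia nigra, 0.0064% for thalamus, 0.0252% for somatosensory cortex, 0.0123% for prefrontal cortex and 0.00608% for hippocampus. The number of the 34 with an unadjusted p below 0.05 was 0 to 4 in these 9 sets. Over all genes it ran from 479 of 16438 in hippocampus at 12 weeks to 2169 of 15654 in thalamus at 4 weeks.

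Aqp4 was the gene called in the striatum. WT libraries 42, 92, 142, 913 and 914 of 4 weeks held 83.9, 82.4, 90.3, 70.8 and 86.1 CPM, Akap11 +/- libraries 11, 22, 93, 162 and 931 held 80.5, 75.4, 76.7, 78.7 and 96.4 CPM, and Akap11 -/- libraries 12, 51, 161, 163 and 932 held 53.6, 52.8, 44.5, 76.6 and 48.9 CPM. The Akap11 -/- libraries were the lowest except for 163, which overlapped with WT. The means were 82.7 ± 7.27 CPM (SD, n = 5) in WT and 55.3 ± 12.5 CPM (SD, n = 5) in Akap11 -/-, and the log2 difference was -0.58 ± 0.12 (edgeR adjusted p = 0.0139). The call held with each of the 10 libraries left out in turn, with log2 differences from -0.72 to -0.51. Without the 4 libraries carrying cortical markers, which left only 2 Akap11 -/- libraries, 12 and 932, the difference was -0.70 (edgeR adjusted p = 0.0056). The call was lost, at edgeR adjusted p = 0.0532, when the fit held only WT and Akap11 -/- libraries. It was also lost, at edgeR adjusted p = 0.0523, without the libraries with few whole values. Prefrontal WT libraries of that age held 63.7 to 106 CPM of Aqp4.

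At 12 weeks striatal Aqp4 was at 42.6 to 59.5 CPM in WT, 43.9 to 60.1 CPM in Akap11 +/- and 41.8 to 47.0 CPM in Akap11 -/-, which overlapped (log2 difference -0.12 ± 0.10, edgeR adjusted p = 0.62). In the thalamus at 4 weeks it was at 164 to 290 CPM in WT and 106 to 202 CPM in Akap11 -/-, with a log2 difference of -0.64 ± 0.15 that missed the threshold (edgeR adjusted p = 0.122). The difference between its change in the striatum and the mean change of the other 5 regions was -0.42 ± 0.26 (edgeR adjusted p = 0.566), so its change was not shown to differ between the striatum and the other regions. Gja1 was at 200 to 218 CPM in WT and 149 to 195 CPM in Akap11 -/- in that thalamus set, without overlap (log2 difference -0.29, edgeR adjusted p = 0.212), where 0.441% of all genes lay lower without overlap. Gfap in the same libraries ran from 16.8 to 224 CPM in WT and from 6.82 to 24.1 CPM in Akap11 -/-, which overlapped. Its log2 difference of -2.34 had an edgeR adjusted p of 0.160, or 0.0352 without WT 142, and the difference was -1.10 without WT 913, 914 and 23, the libraries with the lowest thalamic markers. DESeq2 called Aqp4 and Gfap in this set (adjusted p = 0.0068 and 0.0114).

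**Figure D4:**
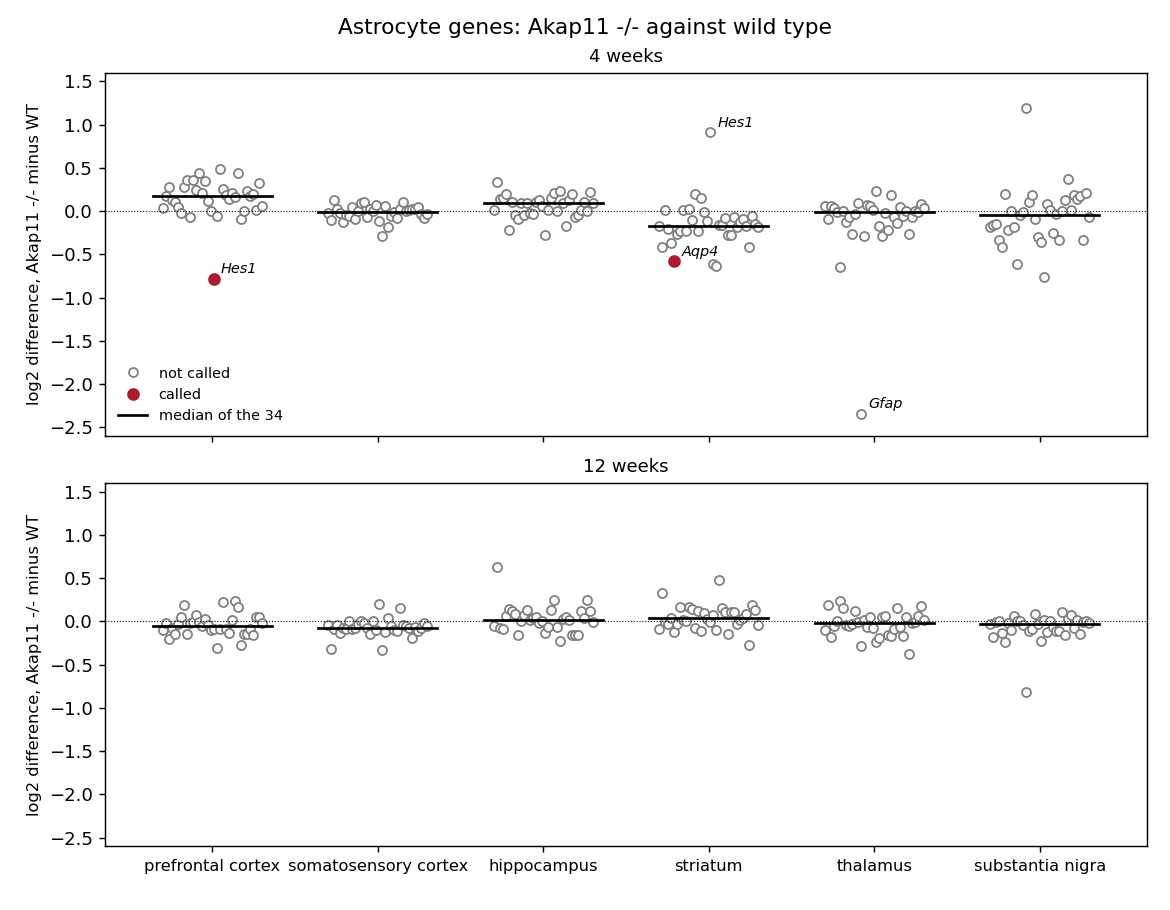
Log2 difference between Akap11 -/- and WT for the 34 genes (points; red when called) in each region at 4 weeks (top) and 12 weeks (bottom), with their median as a bar. The 2 called genes are Hes1 in prefrontal cortex and Aqp4 in striatum, both lower and both at 4 weeks.

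Hes1 was the gene called in the prefrontal cortex. At 4 weeks WT libraries 23, 92, 142, 913 and 914 held 10.7, 8.44, 8.91, 10.2 and 10.7 CPM, and Akap11 -/- libraries 12, 44, 51, 161 and 932 held 5.60, 6.54, 6.21, 4.89 and 5.22 CPM. The 6 Akap11 +/- libraries ran from 6.77 to 10.2 CPM with a mean of 7.97 ± 1.31 CPM (SD, n = 6). All Akap11 -/- libraries were below all WT and all Akap11 +/- libraries, and 0.808% of all genes lay below WT without overlap in this set. The means were 9.78 ± 1.05 CPM in WT and 5.69 ± 0.68 CPM in Akap11 -/- (SD, n = 5 each), and the log2 difference was -0.78 ± 0.12 (edgeR adjusted p = 0.0422). The call was lost without WT 913, 914 or 23 or Akap11 -/- 12, 51, 161 or 932, with adjusted p-values up to 0.241 and log2 differences from -0.84 to -0.73. At 12 weeks WT held 5.18 to 9.72 CPM and Akap11 -/- 5.55 to 8.84 CPM, which overlapped (log2 difference -0.09 ± 0.16, edgeR adjusted p = 1.00). In that 12-week set Itih3 lay higher without overlap, at 16.2 to 17.4 CPM in Akap11 -/- and 11.5 to 15.9 CPM in WT, where 0.521% of all genes did (log2 difference 0.23 ± 0.10, edgeR adjusted p = 1.00).

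In the striatum at 4 weeks Hes1 was higher in some Akap11 -/- libraries. WT libraries 42, 92, 142, 913 and 914 held 1.23, 3.26, 1.80, 2.09 and 1.89 CPM, and Akap11 -/- libraries 12, 51, 161, 163 and 932 held 1.53, 7.29, 5.50, 3.32 and 1.69 CPM. The 4 highest, WT 92 and Akap11 -/- 51, 161 and 163, are those in which Slc17a7, the vesicular glutamate transporter of cortical neurons, was at 564 to 1186 CPM, against 2.83 to 14.9 CPM in the other 6. The log2 difference was 0.91 ± 0.37 (edgeR adjusted p = 0.201), and it was -0.14 without those 4 libraries, with only Akap11 -/- 12 and 932 left. The change in striatum minus the mean change in the other 5 regions was called for Hes1 at 4 weeks, at 1.17 ± 0.28 (edgeR adjusted p = 0.0140), with 0.544% of all genes called lower and 1.79% higher. Without all 11 libraries that stood apart it was 0.18 (edgeR adjusted p = 0.754), and it was lost without striatal WT 42 or 142 or Akap11 -/- 51 or 161. At 12 weeks 0 of the 34 were called in that test, where 1.45% of all genes were called higher and 1.88% lower. An unadjusted p below 0.05 was held there by 1 of the 34 and by 2339 of all 17628 genes.

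**Figure D5:**
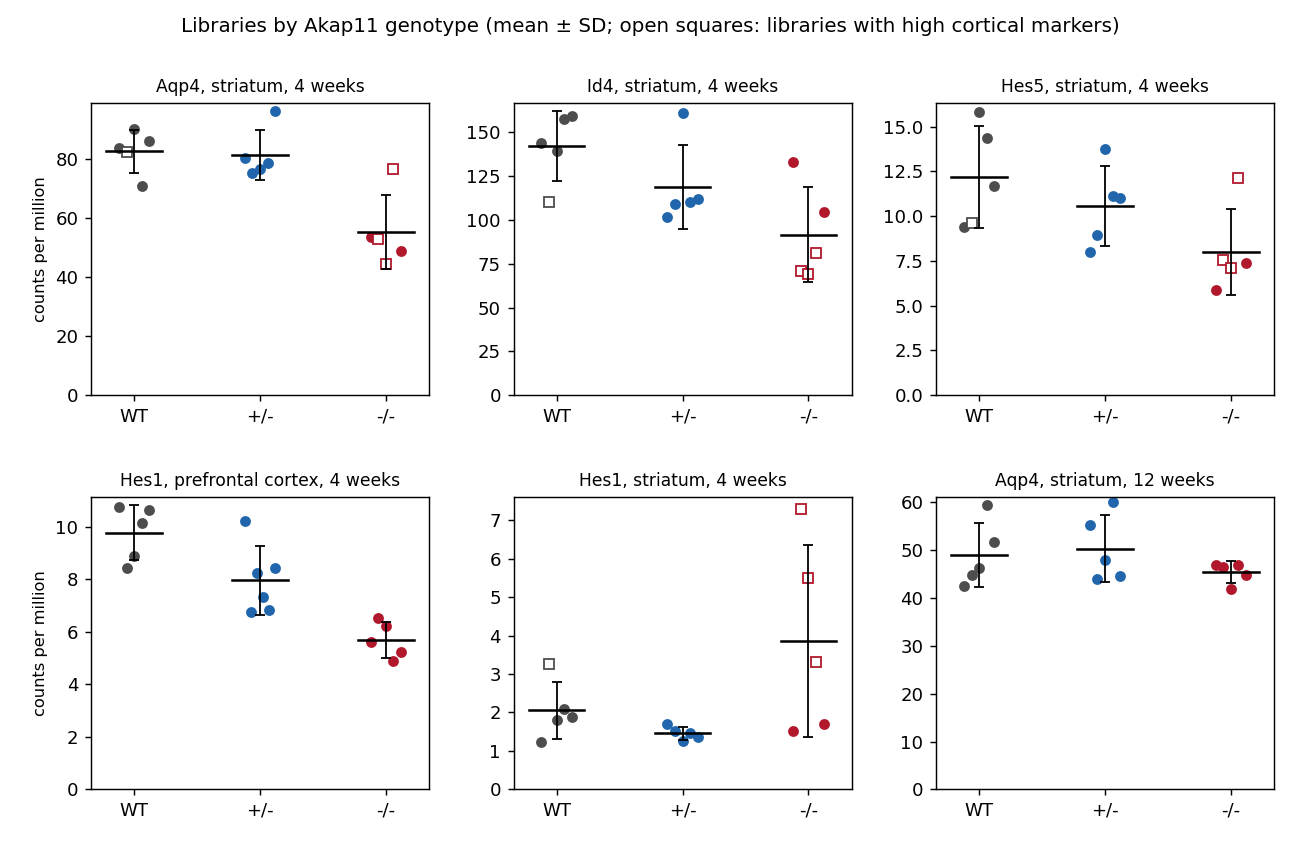
Level in CPM in each library by Akap11 genotype for Aqp4, Id4, Hes5 and Hes1 in striatum, and Hes1 in prefrontal cortex, with mean and SD; open squares mark striatal libraries with high cortical markers. Akap11 -/- libraries are low for Aqp4 except for 1, and the high striatal Hes1 values are all open squares.

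Id4 and Hes5 had the next smallest p-values in the striatum at 4 weeks. Id4 was at 144, 110, 139, 158 and 159 CPM in WT libraries 42, 92, 142, 913 and 914, at 102, 109, 161, 110 and 112 CPM in Akap11 +/- libraries 11, 22, 93, 162 and 931, and at 133, 70.6, 69.1, 81.2 and 105 CPM in Akap11 -/- libraries 12, 51, 161, 163 and 932. The 3 Akap11 -/- libraries with cortical markers were the lowest of all, and the other 2 lay within or just under the WT range. The log2 difference was -0.64 ± 0.17 (edgeR adjusted p = 0.0587), called without WT 92 or without Akap11 -/- 12 and by DESeq2 (adjusted p = 0.0152), and it was -0.35 (edgeR adjusted p = 0.275) without the 4 libraries with cortical markers. Slc4a4, also high in striatum, was at 209, 208 and 248 CPM in the same 3 libraries and 403 and 331 CPM in the other 2, against 323 to 454 CPM in WT. Its log2 difference was -0.42 (edgeR adjusted p = 0.160), called without Akap11 -/- 12, and -0.06 without the libraries with cortical markers.

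Hes5 was at 9.39, 9.62, 15.8, 14.4 and 11.7 CPM in these WT libraries, 8.01, 8.96, 13.8, 11.1 and 11.0 CPM in Akap11 +/- and 5.89, 7.52, 7.12, 12.1 and 7.36 CPM in Akap11 -/-. Of the Akap11 -/- libraries only 163 reached the WT range. The log2 difference of -0.61 ± 0.20 was not called (edgeR adjusted p = 0.119). It was called without Akap11 -/- 163 and by DESeq2 (adjusted p = 0.0485). Without the 4 libraries with cortical markers it was called at -0.97 ± 0.23 (edgeR adjusted p = 0.0445). That fit kept only Akap11 -/- 12 and 932 of the Akap11 -/- libraries.

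Below the threshold, 28 of the 34 genes were lower in the Akap11 -/- striatum at 4 weeks. The median log2 difference was -0.17 beside -0.0015 for all genes. An unadjusted p below 0.05 was held by 10 of the 34 and by 2755 of all 15425 genes tested. Without the 4 libraries with cortical markers 27 of 34 were lower, with a median of -0.14, but only Akap11 -/- 12 and 932 were then left. At 12 weeks 21 were higher, with a median of 0.04. In the prefrontal cortex at 4 weeks 27 of 34 were higher, with a median of 0.18 beside 0.01 for all genes. In that set 8 of the 34 and 2415 of all 15970 genes had an unadjusted p below 0.05. There the 10 oligodendrocyte markers had a median of -0.70 and the 10 neuron markers of -0.32, with 0 of either called, and their part was not tested. All 12 sets of Akap11 -/- share their WT libraries with the Akap11 +/- sets.

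In the striatum at 12 weeks the smallest p-values belonged to Slc4a4, Slc7a10 and Ntsr2, a neurotensin receptor. Slc4a4 was at 298, 377, 279, 413 and 338 CPM in WT libraries 1 to 5, 320, 280, 311, 366 and 346 CPM in Akap11 +/- and 307, 246, 308, 295 and 275 CPM in Akap11 -/-, which overlapped (log2 difference -0.27 ± 0.10, edgeR adjusted p = 0.160). Slc7a10 was at 20.9, 14.9, 16.9, 17.5 and 17.2 CPM in WT, 19.9, 15.5, 17.8, 17.0 and 17.9 CPM in Akap11 +/- and 23.0, 17.6, 19.9, 20.6 and 19.9 CPM in Akap11 -/- (log2 difference 0.20 ± 0.09, edgeR adjusted p = 0.314). Ntsr2 was at 82.0, 81.1, 59.5, 73.7 and 67.2 CPM in WT, 66.8, 67.1, 68.7, 71.1 and 66.0 CPM in Akap11 +/- and 73.1, 67.9, 60.3, 68.6 and 60.3 CPM in Akap11 -/- (log2 difference -0.15 ± 0.08, edgeR adjusted p = 0.389). In each of the 3 genes the genotypes overlapped.

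In Akap11 +/- mice 0 of the 34 genes were called in any of the 12 sets by edgeR, and 2 by DESeq2 summed over the sets. At 4 weeks the share of all genes called was 0% in hippocampus and substantia nigra, 0.00626% in prefrontal cortex, 0.00627% in somatosensory cortex, 0.00648% in striatum and 0.00639% in thalamus. At 12 weeks it was 0.00606% for substantia nigra, 0.0064% for both striatum and thalamus, 0.00608% for hippocampus, 0.00629% for somatosensory cortex and 0.00613% for prefrontal cortex. The set with the most small p-values among the 34 was the thalamus at 12 weeks, where 30 of the 34 were lower. The median was -0.17 beside 0.00 for all genes. In this set 13 of the 34 and 1464 of all 15634 genes had an unadjusted p below 0.05. Aldh1l1, a folate enzyme widely used to label astrocytes, had the smallest p there (log2 difference -0.35 ± 0.08, edgeR adjusted p = 0.390), and was called by DESeq2 (adjusted p = 0.0184). In Akap11 -/- libraries of the same region and age 20 of 34 were lower, with a median of -0.02. The change of the Akap11 -/- effect from 4 to 12 weeks was called for 0 of the 34 genes in any region, and for 0% of all genes. DESeq2 and limma-voom called 0 of the 34. An unadjusted p below 0.05 was held by 6 of the 34 in prefrontal cortex (832 of all 16359 genes). It was 5 in striatum (799 of 15764), 5 in thalamus (959 of 15867) and 1 in hippocampus (444 of 16679). In substantia nigra it was 1 (1234 of 16543) and in somatosensory cortex 0 (413 of 16116).

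Other astrocyte genes and related pathways were read from lists kept apart from the 34. In the Akap11 -/- striatum 1.59% of all genes were called higher and 1.75% lower at 4 weeks, and 1.82% and 2.6% at 12 weeks. Striatal WT 92 and Akap11 -/- 51, 161 and 163 of 4 weeks carried cortical markers, and values of these lists without them are not given. Of 45 further astrocyte genes 1 was called higher and 0 lower in the Akap11 -/- striatum at 4 weeks, namely Etnppl, a lipid enzyme (1.26 ± 0.33, edgeR adjusted p = 0.0465), and at 12 weeks Mfge8, a bridging protein for phagocytosis, was higher (0.43 ± 0.09, edgeR adjusted p = 0.0111) and 0 were lower. Their medians were -0.05 and 0.06. Of the genes linked to reactive astrocytes, 0 of 22 tested were called at 4 weeks, and of 24 at 12 weeks Amigo2 was higher (0.58 ± 0.09) and Fbln5 lower (-0.31 ± 0.08) (edgeR adjusted p = 0.0011 and 0.0291). Of 25 genes of the Notch and BMP pathways 0 were called at 4 weeks, and at 12 weeks Hey1, a Notch effector, was lower (-0.28 ± 0.07, edgeR adjusted p = 0.0354). Microglial markers C1qa and C1qb were the 2 of 10 called in the striatum at 4 weeks, both lower (-0.35 ± 0.09 and -0.30 ± 0.07, edgeR adjusted p = 0.0433 and 0.0298), and summed microglial markers ran from 424 to 548 CPM in WT and 375 to 480 CPM in Akap11 -/-. Of the markers of vessel wall cells Tagln, a smooth muscle gene, was lower at both ages (-2.51 ± 0.20 and -1.85 ± 0.37, the latter with edgeR adjusted p = 0.0076). Tagln is 1 gene of that list, and values of the other vessel wall markers are not given. The part of these other cells in the astrocyte values was not tested.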

How the data were processed

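The authors quantified reads per gene, and the deposited table holds expected counts, with Salmon and the mouse build mm10 named per the submitters' processing notes; no version is given there. RNA came from microdissected frozen brain and was made into stranded mRNA libraries, per the labels' protocols. The 34 genes and all lists were chosen with earlier results of these data known. Expected counts were rounded to whole numbers, filtered with filterByExpr, scaled by TMM and tested with edgeR 4.0.16 (R 4.3.3), with p-values adjusted over all genes tested. Genotypes were compared within each region and age with all 3 genotypes in the fit, regions and ages in WT libraries. Levels are CPM, and a value of 1 was added before taking log2 for spreads. Library totals were 20794652 to 73344445 counts (median 45068701), and low genes such as Hes1 are the least precise. No 2 libraries of a group agreed within counting noise. Alternatives used DESeq2 1.42.0, limma 3.58.1, RLE scaling, no filter, fewer libraries or genotypes, and a block for sample number. In the striatal genotype fits the mean level of cortical markers was also added as a covariate, and single-gene values from it are not given. Leaving out each library for the difference in Akap11 -/- change between striatum and the other regions was chosen after seeing the data. Values in every library are given for genes called between genotypes and for the 3 with the smallest p in each striatal set; for regions and ages, called genes with the largest changes are named; other named members were chosen after their values were seen. The code was tested on simulated data. One gene of the further astrocyte list is not reported here.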

Additional observations from a re-analysis of the deposited data

Results flagged for a closer look

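In 6 of 42 groups checked, 1 library lay farther from the rest than Dixon's criterion allows; chance alone gives about 1 in 20. In striatum at 4 weeks these were Aqp4 at 96.4 CPM in Akap11 +/- 931 and at 76.6 CPM in Akap11 -/- 163, Hes5 at 12.1 CPM in Akap11 -/- 163, and Id4 at 161 CPM in Akap11 +/- 93. In thalamus at 4 weeks they were Gfap at 224 CPM in WT 913 and at 41.5 CPM in Akap11 +/- 162. The change of Hes1 in the Akap11 -/- striatum at 4 weeks differed from its mean change in the other 5 regions by 1.17 on the log2 scale (edgeR adjusted p = 0.0140), and by 0.18 without the libraries that stood apart.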

How the results depend on the processing

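Numbers here are genes of the 34 that were called. For Akap11 -/- in striatum at 4 weeks, 1 became 3 with DESeq2 and without the libraries standing apart, 2 without the libraries with few whole values, and 0 with only the 2 genotypes. Leaving out the libraries standing apart kept only Akap11 -/- 12 and 932 in that set. Over the other 10 sets, 1 became 3 with DESeq2, and 0 with only the 2 genotypes or without the libraries with few whole values. For Akap11 +/- 0 became 2 with DESeq2. With the sample number as a replicate block, 0 became 1 for Akap11 -/- in striatum at 12 weeks (Slc7a10, edgeR adjusted p = 0.0207, higher in 5 of 5 same-numbered pairs) and 0 became 1 for Akap11 +/-. Deviations of same-numbered 12-week libraries of 1 region correlated above 0.1 in 62 of 90 pairs (median 0.16). Between WT regions same-numbered libraries did so in 52 of 75 pairs at 12 weeks (median 0.14) and 31 of 76 at 4 weeks (median 0.04). Correlations between libraries of unlike number were not computed, so these values cannot tell whether numbers are shared. The main regional tests used no block. In the striatal WT and Akap11 -/- pairs the correlations ran from -0.25 to 0.41, short of the rule that all pairs exceed 0.1, so the block was kept as an alternative. With all genotypes in the fit, regions at 4 weeks gave 20 in somatosensory cortex, 24 in hippocampus and 32 in striatum, and ages gave 13 in prefrontal and 19 in somatosensory cortex, 21 in hippocampus, 16 in striatum and 12 in substantia nigra. Without the libraries standing apart, ages gave 5 in striatum and 2 in substantia nigra, and the change of the Akap11 -/- effect with age gave 1 where there was 0. Without the libraries with few whole values, ages gave 4 in striatum and 15 in substantia nigra. The difference in Akap11 -/- change between striatum and other regions at 4 weeks gave 2 with DESeq2 and 3 without the libraries with few whole values. Hes1 in the Akap11 -/- striatum at 4 weeks reversed to -0.14 without the libraries standing apart, and in prefrontal cortex at 12 weeks its log2 differences with 1 library left out ran from -0.19 to 0.031, the last without WT 2. For WT hippocampus against other regions at 4 weeks, leaving out all WT libraries of 1 sample number at a time gave 9 to 12. Leaving out 1 library at a time gave 1 to 3 for Akap11 -/- in striatum at 4 weeks and 0 to 2 over the other 10 sets. It gave 0 to 2 for the Akap11 -/- change in striatum minus the mean change in the other 5 regions at 4 weeks. For ages it gave 5 to 10 in prefrontal and 3 to 7 in somatosensory cortex, 3 to 8 in hippocampus, 5 to 9 in striatum and 0 to 4 in substantia nigra. The cause of these changes was not tested.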
